A study of Mus musculus with 20 samples.

Results

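The 10 genes described here are imprinted genes known for setting growth: H19, Igf2, Igf2r, Cdkn1c, Mest, Peg3, Dlk1, Meg3, Rian and Grb10. They were chosen by name out of 53465 gene identifiers, with earlier results of these data known. All 10 were among the 15709 genes that passed the filter on low counts. RNA came from skeletal muscle of wild type mice, sequenced from poly(A)-selected libraries, with 5 libraries per group: females and males, each either trained or non-trained, which makes 4 groups and 20 libraries. Which muscle was taken, how old the mice were, how and how long they trained, when tissue was collected and any batch are not given in the labels used here. No label says outright that each library came from its own animal, so a p-value reflects only how far these samples scatter, which may be technical, and library numbers 1 to 5 only name libraries.

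At an imprinted gene, DNA methylation inherited from the egg or the sperm leaves 1 parental copy active, so the dose of the gene is set by which parent it came from. As background, H19, Igf2r, Cdkn1c, Meg3, Rian and, outside the brain, Grb10 are read mainly from the maternal copy, and Igf2, Mest, Peg3 and Dlk1 from the paternal copy. Many of these genes are high in the fetus and are turned down after birth, and H19 is one that adult skeletal muscle is known to keep on. The deposited values sum both copies, so imprinting itself was not measured.

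Library totals ran from 22043145 to 38483572 counts, and 11.2% to 15.9% of the counts came from genes of mitochondrial DNA. None of the 10 myofibre markers, among them Acta1 and Ckm, was at 0 in any library, and their sum stood at 69980 to 90350 CPM. Non-trained female library 1 stood apart, with the highest total and the fewest genes above 0 (18727), and results that move without it are given both ways. CPM, the unit used to compare libraries, are counts scaled to a common library size with TMM factors. Deposited TPM, which also divide by transcript length, were used to compare genes.

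Several members carry microRNA genes within their bounds. Of 15 mature microRNAs lying on the same strand inside 5 members, all 15 had different seeds, and 1 pair each from H19, Igf2, Mest and Rian, members for which a comparison below passed the threshold, is shown from RefSeq (GRCm38.p6), with the seed, bases 2 to 8 from the 5′ end, in capitals. Poly(A)-selected libraries do not measure mature microRNAs, so these sequences say what lies within the bounds of the host genes and not how much of it was made. The H19 pair lies at chr7:142577112-142577133 and chr7:142577078-142577099 on the minus strand, the Igf2 pair at chr7:142654968-142654989 and chr7:142654932-142654952 on the same strand. The Mest pair lies at chr6:30741314-30741336 and chr6:30741354-30741375 and the Rian pair shown, miR-370, at chr12:109618270-109618289 and chr12:109618305-109618326, all on the plus strand. Rian also holds the arms of miR-341 and miR-1188, which are not printed.
miR-675-5p: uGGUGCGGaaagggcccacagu
miR-675-3p: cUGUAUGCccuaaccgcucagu
miR-483-5p: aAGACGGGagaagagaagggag
miR-483-3p: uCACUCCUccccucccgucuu
miR-335-5p: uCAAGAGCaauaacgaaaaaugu
miR-335-3p: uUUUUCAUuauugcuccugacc
miR-370-5p: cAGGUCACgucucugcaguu
miR-370-3p: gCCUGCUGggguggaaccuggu

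RefSeq gave 15 promoter windows for 8 of the members, each 300 bases long, from 250 before to 50 after a start, among 32851 such windows of the genome. H19 and Cdkn1c had no window. CpG pairs, the sites that imprinting marks by methylation, ranged from 0 at Rian to 45 at the upstream Grb10 start, with a median of 7 over all windows. The windows of Meg3, Rian and both Grb10 starts are shown with each CpG in capitals. Meg3 and Rian were taken because they lie on 1 strand of chromosome 12 and varied together most closely of all pairs, although no pair passed the threshold. Rian and Grb10 were taken because they differed between the sexes. Rian held no CpG and Meg3 held 13, at percentile 62.1 of all windows, while the upstream Grb10 window stood at percentile 98.1 and the downstream one, with 9, at percentile 54.2. The Meg3 window is chr12:109540746-109541045 and the Rian window chr12:109603695-109603994, both on the plus strand, and the Grb10 windows are chr11:12037371-12037670 (upstream) and chr11:12027922-12028221 (downstream) on the minus strand.
Meg3: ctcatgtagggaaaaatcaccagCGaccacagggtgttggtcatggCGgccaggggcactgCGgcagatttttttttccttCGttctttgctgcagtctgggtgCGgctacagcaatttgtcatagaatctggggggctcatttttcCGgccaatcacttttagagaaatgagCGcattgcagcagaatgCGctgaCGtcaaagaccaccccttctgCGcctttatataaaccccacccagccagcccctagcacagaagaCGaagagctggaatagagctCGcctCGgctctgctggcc
Rian: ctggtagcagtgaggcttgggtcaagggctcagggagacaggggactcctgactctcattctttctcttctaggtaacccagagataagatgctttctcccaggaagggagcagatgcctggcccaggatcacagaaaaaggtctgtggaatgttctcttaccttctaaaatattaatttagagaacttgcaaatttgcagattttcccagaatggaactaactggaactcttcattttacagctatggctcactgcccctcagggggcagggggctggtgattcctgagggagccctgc
Grb10 upstream: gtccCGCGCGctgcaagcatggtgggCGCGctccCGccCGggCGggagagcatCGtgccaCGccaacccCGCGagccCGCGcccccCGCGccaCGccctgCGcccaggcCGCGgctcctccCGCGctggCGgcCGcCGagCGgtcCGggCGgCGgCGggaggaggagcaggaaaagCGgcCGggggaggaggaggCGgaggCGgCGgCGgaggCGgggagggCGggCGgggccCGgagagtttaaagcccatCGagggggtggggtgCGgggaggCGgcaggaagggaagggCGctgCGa
Grb10 downstream: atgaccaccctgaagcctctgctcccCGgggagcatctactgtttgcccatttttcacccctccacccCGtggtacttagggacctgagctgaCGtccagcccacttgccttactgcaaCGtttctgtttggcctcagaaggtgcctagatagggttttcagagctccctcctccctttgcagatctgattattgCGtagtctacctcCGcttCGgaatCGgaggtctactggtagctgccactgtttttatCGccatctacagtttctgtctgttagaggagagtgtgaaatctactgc

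On both strands, the word CCCTC was in 13 of the 15 member windows and in 66% of all windows, and the E-box CAGCTG was in 1 of the 15, at Mest, and in 16.3% of all. CCCTC is the letter core of sites bound by CTCF, the insulator protein of the Igf2 and H19 region, and CAGCTG is bound by muscle factors such as MyoD. Each word was counted on its own, and a match describes letters in the window only, with no window of H19 among those counted. A member with several windows counts more than once, and the Mest windows chr6:30737800-30738099 and chr6:30737803-30738102 are almost the same sequence.

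H19 was by far the most abundant member. This long noncoding RNA (chr7:142575529-142578143, minus strand, GRCm38), which lies downstream of Igf2 and shares its enhancers, stood at 399.8 ± 166.1 TPM (SD, n = 20), rank 220 among all gene identifiers. Igf2r (chr17:12682406-12769664), the receptor that takes IGF2 to the lysosome, followed at 19.5 ± 2.23 TPM (SD, n = 20). Meg3 (chr12:109541001-109571726), a long noncoding RNA, was at 16 ± 5.86 TPM and Cdkn1c (chr7:143458339-143461050), the cell cycle inhibitor p57, at 15.6 ± 6.42 TPM. Grb10 (chr11:11930508-12038683), an adaptor that restrains insulin and IGF1 receptor signalling, was at 12.9 ± 2.58 TPM. Then came Rian (chr12:109603940-109661716), the noncoding host of small nucleolar RNAs and microRNAs, at 10.4 ± 4.19 TPM, and Igf2 (chr7:142650766-142666816), the fetal growth factor, at 9.81 ± 6.16 TPM. Mest (chr6:30723547-30748465), a predicted hydrolase gene, and Peg3 (chr7:6703892-6730431), a zinc finger gene, were at 3.04 ± 1.14 and 2.93 ± 1.10 TPM, and Dlk1 (chr12:109452823-109463336), a Notch-like membrane protein gene, at 0.768 ± 0.360 TPM.

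H19 was above Igf2r, Igf2 above Mest and Peg3 above Dlk1 in all 20 libraries. The neighbours in between were not separated: Meg3 was above Cdkn1c in 9 of 20 libraries, Cdkn1c above Grb10 in 10, Rian above Igf2 in 12 and Mest above Peg3 in 10. Igf2r exceeded Meg3 in 15 libraries and Grb10 exceeded Rian in 17. Dlk1 rested on 10 to 40 counts per library and Mest on 24.3 to 221.6, so their values carry the largest counting error, whereas H19 had a mean of 17130 counts.

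Counting on strand is not stated for these files, so a gene on the opposite strand may add to a member, or a member to it. Copg2, opposite Mest, had a mean of 513.6 counts against 89.7 for Mest, and Mest values are uncertain for that reason. Gm27786, an annotated small RNA opposite H19, had 265.3 counts against 17130 for H19, and Airn, the antisense RNA of Igf2r, had 160.1 against 3371. Cdkn1c met Gm44732 with 9.51 counts against 438.9, and the genes over Igf2 had 5.29 (Igf2os) and 4.52 (Gm49394) against 706.2.

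**Figure D1:**
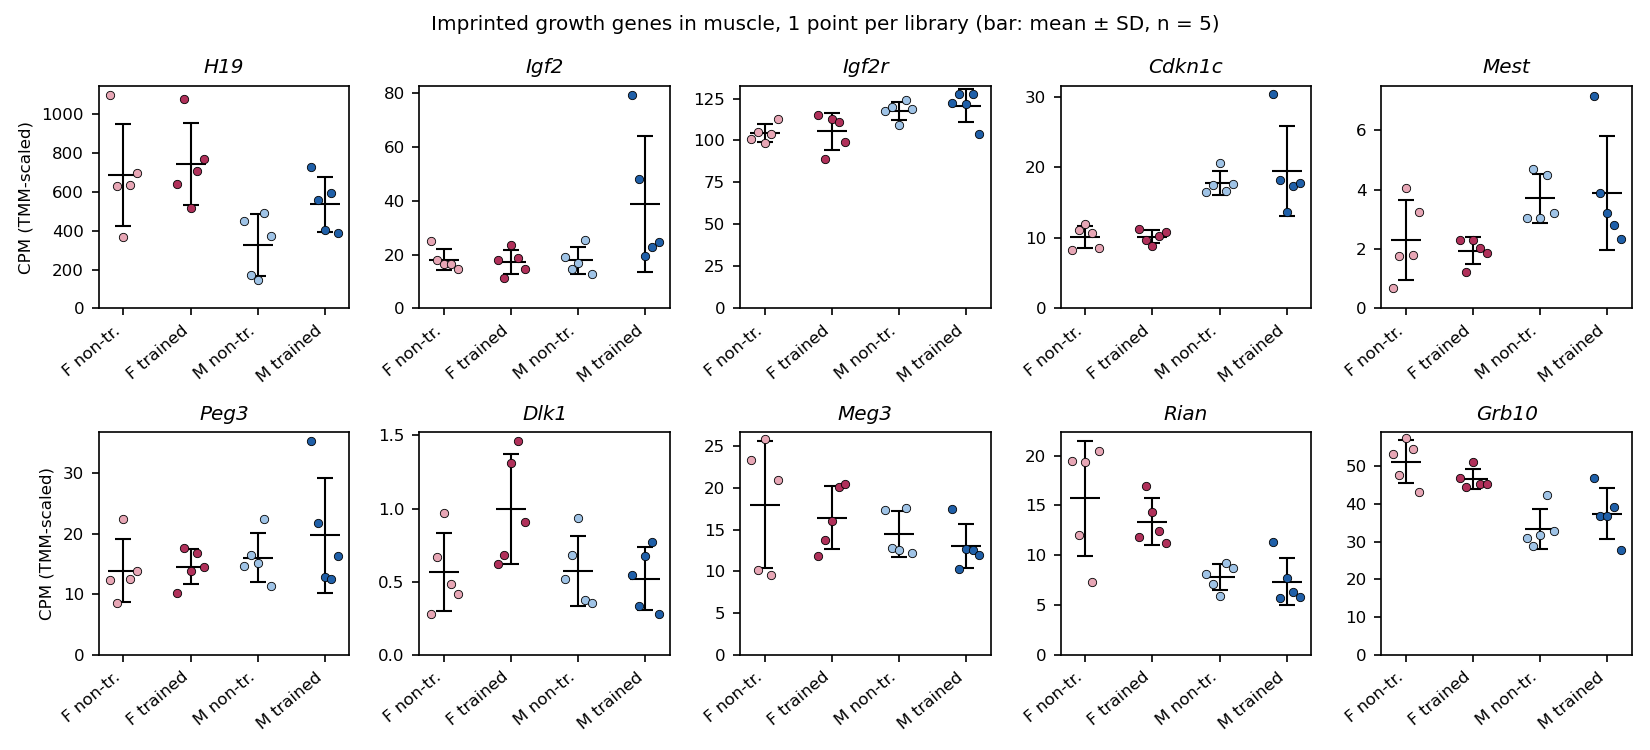
CPM (vertical axes, each from 0) of the 10 members in the 4 groups, 1 point per library, with the mean and SD of 5 libraries as bars. Cdkn1c was higher in all 10 male than in all 10 female libraries, and Igf2 was high in trained male libraries 1 and 2.

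Several members differed between the sexes, and none passed for training. Over both training states, edgeR's quasi-likelihood test with Benjamini-Hochberg adjustment over all genes put 6 of the 10 members past the adjusted p threshold of 0.05, 3 higher and 3 lower in males, beside 17.9% of all genes tested. Cdkn1c, Mest and Igf2r were higher in males, and Rian, H19 and Grb10 were lower. By parental copy, 2 of the 6 maternally expressed members were higher and 3 lower, and of the 4 paternally expressed members Mest alone passed, higher in males. The median log2 difference of the 10 was -0.07, beside 0.003 for all genes.

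Within non-trained mice 3 of 10 members passed, beside 5.21% of all genes: Cdkn1c higher in males (3.14% of all genes were), and Rian and Grb10 lower (2.07%). Within trained mice 3 of 10 passed, beside 5.6%: Cdkn1c and Igf2 higher in males (3.39%), and Rian lower (2.22%). The ranges of the 5 male and 5 female libraries did not overlap for Cdkn1c and Grb10 in non-trained mice, where 6.38% of all genes had no overlap, nor for Cdkn1c and Mest in trained mice (7.38% of all genes). Over all 20 libraries Cdkn1c alone among the members kept the sexes apart, as did 1.54% of all genes.

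**Figure D2:**
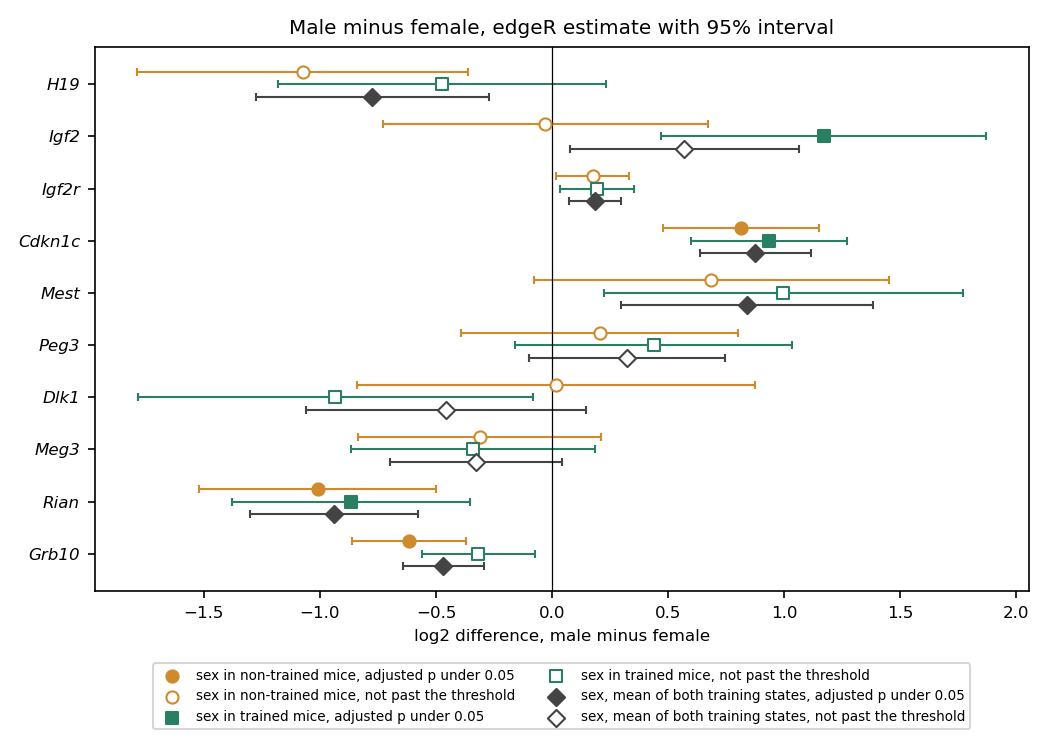
Log2 difference, male minus female (horizontal axis), of each member in non-trained mice, in trained mice and as the mean of both, with 95% intervals; filled symbols are past the adjusted p threshold. Cdkn1c lies to the right of 0 and Rian to the left with filled symbols in all 3 comparisons.

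Cdkn1c gave the steadiest difference. This gene encodes p57, which holds cells out of division. Non-trained females stood at 8.25, 11.1, 11.9, 10.7 and 8.57 CPM in libraries 1 to 5, and trained females at 11.3, 9.70, 8.80, 10.2 and 10.9 CPM. Non-trained males stood at 16.5, 17.5, 20.6, 16.7 and 17.6 CPM, and trained males at 30.4, 18.1, 13.7, 17.3 and 17.8 CPM. Every male library was above every female library, and the highest female value (11.9) lay below the lowest male value (13.7). The log2 difference was 0.82 (SE 0.16, edgeR adjusted p = 0.00458) in non-trained mice and 0.94 (SE 0.16, adjusted p = 0.00143) in trained mice. Cdkn1c passed in both states in all 20 fits that each left out 1 library. Without trained male library 1, the highest of all, the difference in trained mice was 0.72 (adjusted p = 0.00145).

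Rian was lower in males. In non-trained females it stood at 19.5, 12.1, 19.3, 7.34 and 20.4 CPM, and in trained females at 11.9, 17.0, 14.4, 12.4 and 11.3 CPM. The non-trained males were at 8.14, 7.09, 5.88, 9.23 and 8.75 CPM and the trained males at 11.3, 5.67, 7.69, 6.26 and 5.76 CPM. The groups touched through single libraries, non-trained female library 4 among the male values and trained male library 1 beside the lowest trained female. Rian differed by -1.01 (SE 0.24, edgeR adjusted p = 0.0191) in non-trained mice and by -0.87 (SE 0.24, adjusted p = 0.0403) in trained mice. The call in trained mice held in 9 of 20 fits that left out 1 library, with adjusted p from 0.0113 to 0.1: it was lost without any 1 of the 5 trained females, without trained male library 2, 3, 4 or 5 and without non-trained male library 1 or 2. The call in trained mice was also lost with limma-voom (adjusted p = 0.0501), and in edgeR with library size alone (0.0531) or no filter on low counts (0.0986). In non-trained mice it held in 18 of 20 and was lost without non-trained male library 2 (0.051) or 3 (0.0554), and with the non-trained groups fitted alone (0.0593). As the mean of both states the difference of -0.94 (SE 0.17, adjusted p = 9.5e-04) passed in all 20.

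Meg3, whose start lies upstream of Rian on the same strand, did not pass in any comparison. Females averaged 18.0 ± 7.61 CPM without training and 16.4 ± 3.80 CPM with it, beside 14.5 ± 2.73 and 13 ± 2.66 CPM in the males (SD, n = 5 each). Males were lower on average, by a log2 difference of -0.33 (95% interval -0.70 to 0.05, edgeR adjusted p = 0.214 as the mean of both states), and the groups overlapped widely. The other genes of the domain were near the floor: Mirg, a microRNA host, averaged 0.470 CPM, Dio3, which inactivates thyroid hormone, 0.163 CPM and Rtl1, a retrotransposon-derived gene, 0.0757 CPM over the 20 libraries.

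Grb10 was lower in males as the mean of both states, and of the separate states only the non-trained one passed. The mean log2 difference was -0.47 (SE 0.08, edgeR adjusted p = 5.6e-04) and passed in all 20 fits leaving out a library. The 5 non-trained females stood at 53.2, 47.7, 57.4, 54.4 and 43.1 CPM and the 5 non-trained males at 31.0, 28.7, 31.8, 42.3 and 32.9 CPM. Trained females were at 46.8, 44.6, 51.0, 45.3 and 45.4 CPM, and trained males at 46.7, 36.7, 36.7, 39.2 and 27.7 CPM. The non-trained sexes did not overlap, and in trained mice male library 1 alone reached the female values. The log2 difference was -0.62 (SE 0.12, edgeR adjusted p = 0.0034) in non-trained mice, where it passed in all 20 fits leaving out a library. In trained mice it was -0.32 (SE 0.12, adjusted p = 0.113), which did not pass, and without trained male library 1 it was -0.41 (adjusted p = 0.0408), with adjusted p from 0.0408 to 0.243 over the fits leaving out a library. Whether the sex difference itself depended on training gave an interaction of 0.30 (SE 0.16, adjusted p = 0.999).

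H19 was lower in males as the mean of both states. Non-trained females stood at 1098, 628.7, 365.9, 637.6 and 698 CPM and non-trained males at 449.4, 169.2, 145.2, 490.2 and 373.4 CPM. Trained females stood at 642.2, 1081, 517.9, 707.2 and 770.9 CPM and trained males at 726.1, 560.5, 404.2, 596.1 and 389 CPM. Non-trained male libraries 2 and 3 were the lowest of all, and the sexes overlapped in both states. The mean difference was -0.77 (SE 0.24, edgeR adjusted p = 0.0305) and was lost without non-trained female library 1 (-0.66, adjusted p = 0.0638), trained female library 2 (-0.69, 0.061), trained male library 3 (-0.74, 0.0574) or trained male library 5 (-0.73, 0.0541), and with no filter on low counts (0.0706). Within non-trained mice it was -1.07 (adjusted p = 0.0697) and within trained mice -0.47 (adjusted p = 0.459), and neither passed. Adjusted p in non-trained mice ran from 0.0197 (DESeq2) to 0.19 over the alternatives, and DESeq2 and the fit without non-trained female library 3 (0.0378) called it.

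Slow fibre genes differed in the same direction as H19. Of the 10 slow fibre markers, 9 were lower in males as the mean of both states, beside 8.03% of all genes, and none was at 0 in any library. Their summed level was 531.9 to 6313 CPM in females and 375.6 to 2040 CPM in males. Within groups, H19 and this sum had r = 0.66 (permutation p = 0.00152, adjusted p = 0.106 over 140 relations between the 10 members and 14 marker lists) and rho = 0.60 (permutation p = 0.0112, adjusted p = 0.262) over 20 libraries. Without the 2 libraries with the most extreme sums r was 0.64. It was 0.87, 0.80 and 0.91 in non-trained females, trained females and non-trained males, and -0.08 in trained males, with 5 libraries each. The female libraries with the lowest slow fibre sums, trained library 3 (531.9 CPM) and non-trained library 3 (1224 CPM), also had the lowest H19 of their groups. H19 had r = 0.58 with the muscle stem cell and myoblast sum (permutation p = 0.00975, adjusted p = 0.248). Its rho there was 0.64 (permutation p = 0.00409, adjusted p = 0.143). Without non-trained female library 1 and trained female library 2, the most extreme in that sum, r was 0.44. With the adipocyte sum r was -0.555 (permutation p = 0.00472, adjusted p = 0.22) and rho -0.645 (permutation p = 0.0029, adjusted p = 0.143). Within groups r was 0.51 to 0.73 for the stem cell sum and -0.92 to -0.29 for the adipocyte sum. The part of fibre type in the sex difference of H19 was not tested, and in bulk muscle fewer cells of a type and less RNA per cell cannot be told apart.

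**Figure D3:**
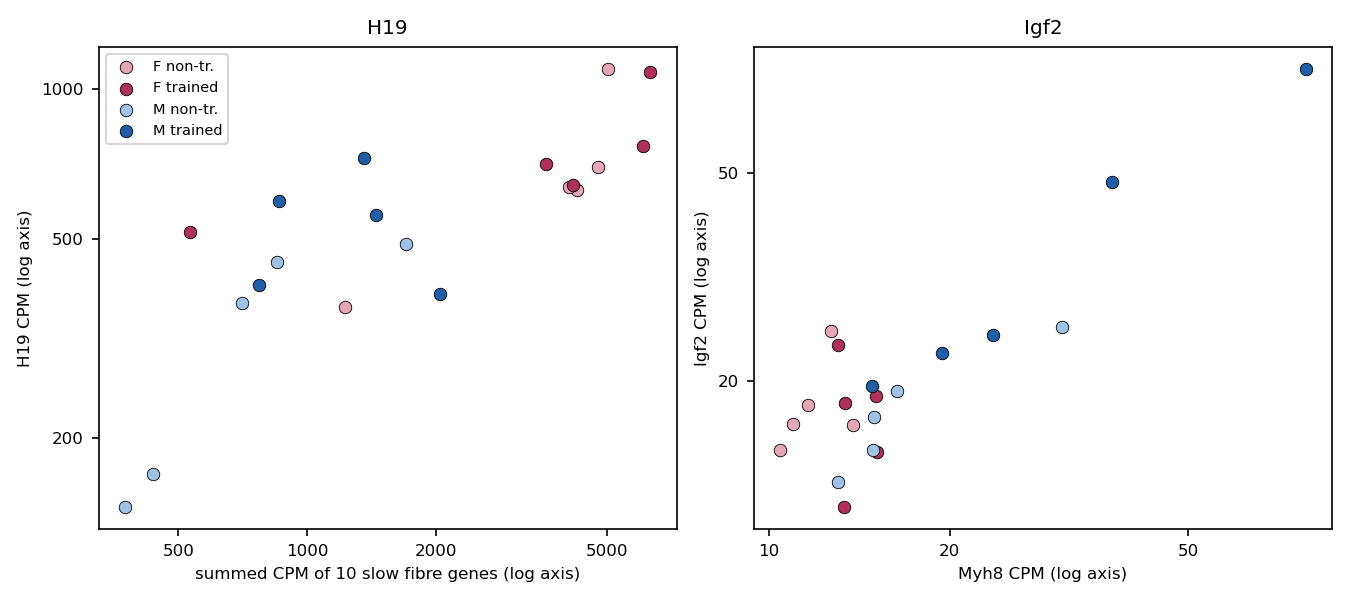
Left, H19 CPM against the summed CPM of 10 slow fibre markers; right, Igf2 CPM against Myh8 CPM (all axes log), 1 point per library, coloured by group. Trained male libraries 1 and 2 hold the highest values of both Igf2 and Myh8.

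Igf2, the ligand, differed between the sexes in trained mice through 2 libraries. Trained males stood at 79.3, 48.1, 19.6, 22.6 and 24.5 CPM and trained females at 18.1, 11.5, 23.5, 18.7 and 14.6 CPM. Non-trained males were at 19.1, 14.7, 17.0, 25.4 and 12.8 CPM and non-trained females at 24.9, 18.0, 16.5, 16.6 and 14.7 CPM. Trained male libraries 1 and 2 were far above all others, while trained male libraries 3 to 5 lay within 19.6 to 24.5 CPM, close to the other groups. The log2 difference in trained mice was 1.17 (SE 0.33, edgeR adjusted p = 0.0457). It was 0.74 (adjusted p = 0.116) without trained male library 1 and 0.37 (adjusted p = 0.423) without trained male libraries 1 and 2, a pair chosen after the values were seen. The call held in 5 of 20 fits that left out 1 library, those without non-trained female library 1, non-trained male library 4 or trained male library 3, 4 or 5, with adjusted p from 0.0313 to 0.116 over the 20. The call was also lost with limma-voom (adjusted p = 0.0932), and in edgeR with no filter on low counts (0.115) or the trained groups fitted alone (0.133). In non-trained mice the difference was -0.03 (95% interval -0.73 to 0.67, adjusted p = 0.973).

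Markers of regenerating fibres were high in the same libraries. Their summed level was 459.7 and 252.6 CPM in trained male libraries 1 and 2, and 50.2 to 211.1 CPM in the other 18, with Mymk at 0 in 1 library, Mymx in 4 and Chrng in 2. Myh8, the perinatal myosin heavy chain gene, stood at 78.5 and 37.3 CPM in those libraries and at 10.4 to 30.8 CPM elsewhere. In the mean of both states 4 of the 9 tested markers of that list were higher in males, beside 9.91% of all genes, and none was past the threshold for training in males. Over all 20 libraries, centred on group means, Igf2 and the sum had r = 0.64 (permutation p = 0.0223, adjusted p = 0.348 over 140 relations) and rho = 0.50 (permutation p = 0.0648, adjusted p = 0.697). Without the 2 libraries farthest from the median of the centred sum, trained male libraries 1 and 3, r was 0.33, so the relation rests on that pair, of which library 1 is one of the pair high in Igf2. Within groups r was -0.60 and 0.15 in females without and with training, and 0.55 and 0.96 in males. The part of regenerating fibres in the Igf2 values was not tested.

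Mest was higher in males as the mean of both states. In non-trained females it stood at 0.671, 1.76, 4.05, 1.80 and 3.24 CPM, and in trained females at 2.30, 1.22, 2.31, 2.05 and 1.85 CPM. Males stood at 3.03, 4.70, 3.05, 4.50 and 3.22 CPM when non-trained and at 7.16, 3.90, 3.22, 2.81 and 2.32 CPM when trained. The trained sexes did not overlap, by a margin of 2.31 against 2.32 CPM, and the non-trained sexes did. The mean difference was 0.84 (SE 0.26, edgeR adjusted p = 0.0277), and 0.69 (adjusted p = 0.276) and 0.997 (adjusted p = 0.115) in the non-trained and trained states did not pass. Without non-trained female library 1 the adjusted p in trained mice was 0.044. The call as the mean of both states was lost, with adjusted p from 0.0513 to 0.0579, without non-trained female library 2, trained female library 2, non-trained male library 2 or trained male library 1. It was also lost with no filter on low counts (0.0538).

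Connective tissue markers stood beside Mest. With the summed level of 12 fibroblast markers, none of which passed a sex comparison within either training state and 2 of which, Pdgfra and Gsn, were higher in males as the mean (beside 9.91% of all genes), r was 0.73 (permutation p = 0.0106, adjusted p = 0.248 over 140 relations) and rho 0.68 (permutation p = 0.00311, adjusted p = 0.143). Without the 2 libraries of most extreme sums r was 0.43, and within groups it was 0.89 and 0.96 in females without and with training, 0.89 in non-trained males and -0.16 in trained males. Mest was as close to the sum of 9 tendon markers (r = 0.73, permutation p = 0.0101, adjusted p = 0.248, rho = 0.68, permutation p = 0.00545, adjusted p = 0.153, and r = 0.33 without the 2 most extreme libraries). None of the 9 passed for sex as the mean, and their sum averaged 233.6 ± 129.3 CPM in females and 229.1 ± 62.5 CPM in males (SD over 10 libraries of each sex). The fibroblast sum was 268.1 to 1278 CPM in females and 943.5 to 1689 CPM in males, and its lowest value was in non-trained female library 1, which also had the lowest Mest. The part of connective tissue in the Mest difference was not tested.

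Igf2r was higher in males by a small, even margin. Non-trained females stood at 101.1, 105, 98.8, 103.7 and 113.1 CPM and trained females at 115.2, 89.1, 113.1, 111 and 98.9 CPM. Non-trained males were at 117.5, 119.8, 109, 123.9 and 118.6 CPM and trained males at 122.1, 127.5, 121.6, 127.9 and 103.8 CPM. Most male libraries were above most female ones, with overlap in both states. The mean difference was 0.18 (SE 0.05, edgeR adjusted p = 0.02), which passed in all 20 fits leaving out a library but not with no filter on low counts (adjusted p = 0.06), and 0.17 and 0.19 in the separate states (adjusted p = 0.174 and 0.134) did not pass with TMM scaling. With library size alone the trained state gave 0.26 (adjusted p = 0.0494). Airn, its antisense RNA, stood at 5.06 ± 0.552 CPM in females and 5.59 ± 0.605 CPM in males (SD, n = 10 each).

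Peg3 and Dlk1 did not pass in any sex comparison. Peg3 stood at 13.9 ± 5.14 and 14.6 ± 2.95 CPM in non-trained and trained females and at 16.1 ± 4.05 and 19.8 ± 9.51 CPM in the males (SD, n = 5 each), with its highest value, 35.4 CPM, in trained male library 1. Its mean sex difference was 0.32 (95% interval -0.10 to 0.74). Dlk1 stood at 0.565 ± 0.267 and 0.996 ± 0.377 CPM in females and at 0.573 ± 0.242 and 0.521 ± 0.214 CPM in males, a mean difference of -0.46 (95% interval -1.06 to 0.15). Its difference was 0.018 in non-trained mice and -0.934 in trained mice (95% interval -1.785 to -0.084, edgeR unadjusted p = 0.03, adjusted p = 0.182). At this depth a difference of that size did not pass, and smaller ones were not detectable.

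For training, no member passed in either sex, in the mean of both sexes or in the interaction, where 0%, 0%, 0.0127% and 0% of all genes were called by edgeR. Before adjustment, p was under 0.05 for 0 members in females, 2 in males (Igf2 and H19), 1 in the mean (Igf2) and 1 in the interaction (Igf2), beside 1347, 676, 1441 and 656 of the 15709 genes. DESeq2 called no member in these 4 comparisons and 33, 5, 30 and 1 genes in all. Over the 10 members the median log2 difference was -0.03 in females and 0.10 in males, beside 0.004 and 0 for all genes. In no member were trained and non-trained libraries without overlap, in females (1.35% of all genes) or in males (1.09%). The comparisons of training and of sex share groups of libraries.

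The member with the largest difference for training was Igf2 in males, where trained and non-trained libraries averaged 38.8 ± 25.3 and 17.8 ± 4.85 CPM (SD, n = 5 each). Its log2 difference was 1.13 (SE 0.33, edgeR unadjusted p = 0.00312, adjusted p = 0.993). Without trained male libraries 1 and 2 it was 0.32 (adjusted p = 0.997). H19 in males was at 535.2 ± 140.8 against 325.5 ± 159.4 CPM, 0.72 (95% interval 0.01 to 1.43, adjusted p = 0.993). Dlk1 in females was at 0.996 against 0.565 CPM, 0.81 (95% interval -0.04 to 1.66, adjusted p = 0.599). For Igf2r the 95% interval of the training difference was -0.14 to 0.17 in females and -0.12 to 0.19 in males, the narrowest of the members. For Cdkn1c it was -0.33 to 0.35 and -0.20 to 0.46.

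**Figure D4:**
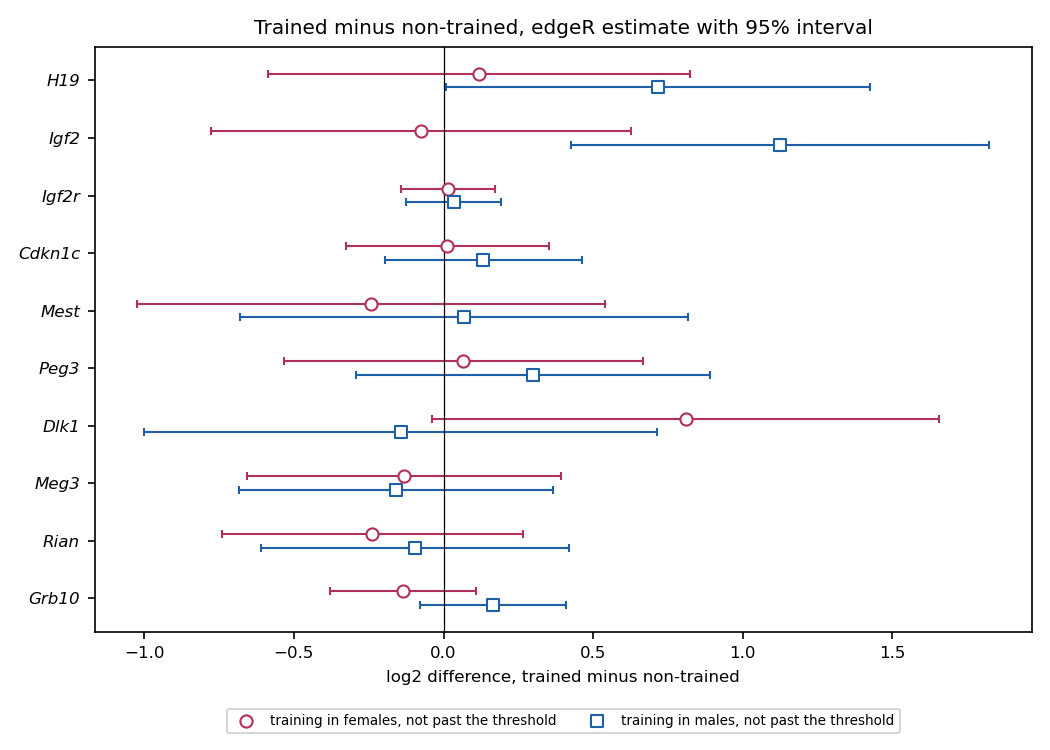
Log2 difference, trained minus non-trained (horizontal axis), of each member in females and in males, with 95% intervals; all symbols are open because no member passed the adjusted p threshold. Igf2 in males has an interval of 0.43 to 1.83 that excludes 0 before adjustment.

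The members differed in how much libraries of 1 group varied. The biological coefficient of variation of the edgeR fit was 0.362 for H19, 0.354 for Igf2, 0.306 for Peg3, 0.271 for Meg3 and 0.262 for Rian, beside a median of 0.177 over all genes tested. Among the 500 genes nearest in level, these stood at percentiles 96.8, 97.2, 97, 94 and 90.8. Igf2r, at 0.0947, varied least and stood at percentile 25, with Grb10 (0.133) at 76.4 and Cdkn1c (0.178) at 80.8. Mest (0.387) and Dlk1 (0.387) stood at 87.6 and 33. The mean coefficient of variation within groups, as the median over the members, was 29.4% in CPM and 29.7% in deposited TPM.

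No pair of members varied together past the threshold. Of 45 pairs, 37 had a positive Pearson r of log2 CPM centred on group means over the 20 libraries, 6 had an unadjusted permutation p under 0.05 and 0 passed Benjamini-Hochberg adjustment. The median r was 0.26. The same figures for pairs of other genes are not given here, so these do not set the members apart. Meg3 and Rian, neighbours on chromosome 12, were the closest pair, with r = 0.72 (permutation p = 0.00843, adjusted p = 0.212) and rho = 0.66 (permutation p = 0.0113, adjusted p = 0.349), and r = 0.58 without the 2 libraries most extreme in Meg3. Within groups r was 0.92 in non-trained females, -0.38 in trained females, 0.53 in non-trained males and 0.94 in trained males. In non-trained females both genes were low in library 4, at 9.53 CPM for Meg3 and 7.34 CPM for Rian.

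H19 and Igf2, which share enhancers, had r = 0.29 (permutation p = 0.171, adjusted p = 0.452) and rho = 0.23 (permutation p = 0.332, adjusted p = 0.602), and r was 0.33 without the 2 libraries most extreme in H19. Igf2 and Peg3 had r = 0.56 (permutation p = 0.0415, adjusted p = 0.344) and rho = 0.41 (permutation p = 0.138, adjusted p = 0.602), and 0.26 without trained male libraries 1 and 3. Igf2 and Grb10, ligand and downstream brake, had r = 0.59 (permutation p = 0.0339, adjusted p = 0.344), rho = 0.47 (permutation p = 0.049, adjusted p = 0.441) and r = 0.50 without the 2 libraries most extreme in Igf2. Peg3 and Meg3 had r = 0.57 (permutation p = 0.01, adjusted p = 0.212) and rho = 0.44 (permutation p = 0.0794, adjusted p = 0.51). Their r was 0.53 to 0.7 within groups, and 0.39 without the 2 libraries most extreme in Peg3. Igf2r and Mest had r = 0.43 (permutation p = 0.0459, adjusted p = 0.344), rho = 0.51 (permutation p = 0.0233, adjusted p = 0.349) and r = 0.25 without the 2 libraries most extreme in Igf2r. The lowest r was between H19 and Dlk1, at -0.59 (permutation p = 0.0141, adjusted p = 0.212) with rho = -0.51 (permutation p = 0.035, adjusted p = 0.394), and -0.41 without the 2 libraries most extreme in H19, where Dlk1 rests on sparse counts.

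**Figure D5:**
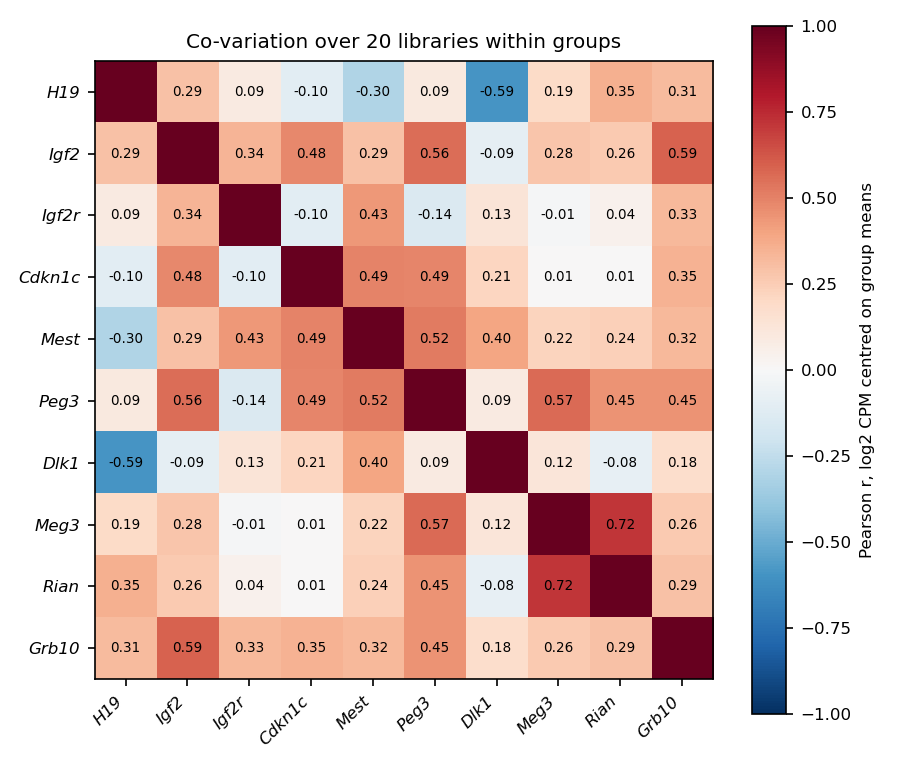
Pearson r between members (both axes) of log2 CPM centred on group means over 20 libraries, red for positive and blue for negative. Meg3 with Rian (0.72) is the highest and H19 with Dlk1 (-0.59) the lowest.

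By the same centred r, given as a description over 20 libraries, the gene most like H19 was Gm27786 (r = 0.89), which overlaps it, then Micu2 (0.84), a subunit of the mitochondrial calcium uniporter complex, and Casq2 (0.83), the slow and cardiac calsequestrin. Gm27786 lies on the opposite strand, and H19 reads may have been counted to it, which was not tested. Those most like Igf2 were Myh8 (0.86), Ccdc141 (0.82) and Wtap (0.81), and Myh8 (0.79) was also among the closest to Peg3, with Hoxa3 (0.83) and St3gal1 (0.78). For Mest they were Nsd1 (0.87), Col1a1 (0.86), the type I collagen gene, and Tiam1 (0.86). Meg3 was closest to Arv1 (0.82), Fubp3 (0.81) and Firre (0.81), a nuclear noncoding RNA, and Rian to Cyp4f17 (0.77), Gemin2 (0.77) and Zdbf2 (0.76), itself imprinted. Cdkn1c was closest to Txnrd3 (0.83), Zfhx2 (0.82) and Pard3 (0.81), Igf2r to Fam160a1 (0.78), Zbtb6 (0.77) and Zfp994 (0.76), Grb10 to Itpk1 (0.75), Tob2 (0.74) and Ttpal (0.71), and Dlk1 to Gdap1 (0.83), Tdrkh (0.82) and Slc44a2 (0.82). For each member other than H19, 11707 genes were searched, and the libraries share their totals and composition.

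Around the members, few other imprinted genes differed. Of 41 tested from a list of 55, 2 were higher and 3 lower in males as the mean of both states, beside 9.91% and 8.03% of all genes, with a median of -0.02. Ampd3, an AMP deaminase family gene, was lower. Male libraries averaged 17.8 ± 2.04 CPM and female ones 26.4 ± 5.12 CPM (SD over 10 libraries of each sex), which gave -0.56 on the log2 scale (SE 0.10, edgeR adjusted p = 5.1e-04). Ddc was higher by 1.18 and Dcn, the decorin gene, by 0.63, while Cobl and Commd1 were lower, at -0.30 and -0.21. None of the list passed for training.

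Of the growth factor axis that Igf2, Igf2r and Grb10 belong to, Igf1, the postnatal ligand, was higher in males. It averaged 27.8 ± 5.94 CPM over the 10 male libraries and 10.95 ± 4.25 CPM over the 10 female ones (SD), or 1.34 on the log2 scale (SE 0.21, edgeR adjusted p = 2.5e-04). Of 15 tested ligands, receptors and binding proteins, 2 were higher and 2 lower as the mean of both states, beside 9.91% and 8.03% of all genes: Igf1 and Igfbp4 (0.60) were higher and Stc2 (-1.16), which restrains IGF release, and Igf1r (-0.24), the receptor, were lower. Of 23 tested genes of signalling inside the cell 4 passed, beside 17.9% of all genes, and the 3 that were lower were Foxo3 (-0.52), Pik3ca (-0.29) and Foxo4 (-0.26). Among 14 tested genes of imprint maintenance 1 passed, also beside 17.9%: Zfp445 (0.16), which protects imprints, was higher. No gene of these 3 lists passed for training.

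Macrophage markers stood beside the higher Igf1. All 10 were higher in males as the mean of both states, beside 9.91% of all genes, none was at 0 in any library, and their summed level was 116.9 to 672.5 CPM in males and 42.6 to 137.7 CPM in females. Their part in the Igf1 difference was not tested.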

How the data were processed

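RNA of 20 skeletal muscle libraries was analysed, 5 in each of 4 groups of sex and training. The authors deposited 1 table per library with an expected count per gene, which need not be whole, and TPM, both from RSEM per the file headers. The submitters' processing notes name limma, edgeR, RSEM 1.3.1, STAR 2.5.1, Trim Galore, cutadapt and the build GRCm38 without roles, and no annotation release. RSEM divides reads that fit several genes by estimation. Symbols and coordinates came from GENCODE M21, which held 53360 of the 53465 identifiers; sequences came from RefSeq tables (GRCm38.p6).

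Expected counts were rounded, filtered with filterByExpr (minimum count 10) and scaled by TMM, and all 4 groups were fitted together in edgeR 4.0.16 (robust quasi-likelihood, 16 residual degrees of freedom) under R 4.3.3. Adjusted p is Benjamini-Hochberg over 15709 genes, and SE is the log2 difference over the square root of F. Correlations used log2 CPM (prior count 2) and 100000 permutations within groups. On simulated counts for sex in non-trained mice (15462 genes), 41.4% of genes changed 1.5-fold and 56% of those changed 2-fold were recovered, with 3 false among 100 calls. Replicate pairs differed beyond sampling noise in all 40 pairs within groups (chi-square per degree of freedom 17.6 to 149.5). All members are named; from each list up to 3 genes by smallest p, plus those past the threshold, and the 3 most like each member in pattern among genes of at least 1 CPM, without predicted genes (a gene that overlaps a member is kept). Alternatives were DESeq2 1.42.0, limma-voom (limma 3.58.1), other scalings and filters, the groups compared alone, abundant genes removed and each library left out. The members and lists were chosen with earlier results of these data known. A result on the list of signalling genes is not reported here.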

Additional observations from a re-analysis of the deposited data

Results flagged for a closer look

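Among 40 sets of 5 values, 1 per member and group, 3 held a library whose gap to its nearest neighbour was over 0.71 of the whole range, Dixon's 95% bound for 5, and chance alone sets apart about 1 in 20. Cdkn1c was at 30.42 CPM in trained male library 1, the highest of all 20 libraries, which was also the highest for Igf2, Mest and Peg3. Cdkn1c was at 20.59 CPM in non-trained male library 3, where the other 4 stood at 16.5 to 17.6 CPM. Igf2r was at 103.8 CPM in trained male library 5, below the 121.6 to 127.9 CPM of the other 4.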

How the results depend on the processing

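No paired analysis was possible because the labels give no replicate number that groups share. Cdkn1c passed for sex in both states and in their mean, and Rian and Grb10 in their mean, under every alternative run. In trained mice 1 member passed with limma-voom and 1 with no low-count filter instead of 3, and leaving out each library gave 1 to 4. In the mean of both states 3 instead of 6 passed with no low-count filter, where more genes are tested. Without centring on group means, 11 pairs of members instead of 0 passed; differences between groups then add to the correlation. In non-trained mice 2 to 4 members passed and in the mean 4 to 6 when 1 library was left out. For all genes, DESeq2 called 1465 instead of 818 in non-trained and 1401 instead of 880 in trained mice, and 33, 5, 30 and 1 instead of 0, 0, 2 and 0 for training in females, in males, in their mean and in the interaction. The count for training in the mean ran from 0 to 7, with 7 without non-trained male library 5. The groups compared alone gave 448 in non-trained mice, no low-count filter 558 in trained mice, and the fit without trained male libraries 1 and 2 gave 429 there. Leaving out 1 library gave as few as 435 (non-trained male library 3), 499 (non-trained male library 2) and 507 (non-trained female library 2) in non-trained mice, and 494 (trained male library 3), 578 (trained female library 4) and 582 (trained male library 2) in trained mice. Library size without TMM moved the median of all genes by under 0.1 and raised the share of calls higher in males from 60.3% to 75% in non-trained mice, from 60.5% to 79.6% in trained mice and from 55.2% to 75.1% in the mean; the 3 and 3 calls among members in the mean kept their directions.

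Signs changed only for differences that passed nowhere, and the cause was not tested. Mest turned with limma-voom to 0.013 for training in females, -0.029 in males and -0.041 in the interaction. With library size without TMM, training in females turned to -0.005 for Igf2r and -0.002 for Cdkn1c, and sex in non-trained mice to 0.035 for Igf2; with no low-count filter Dlk1 turned to -0.001 there. Leaving out 1 library gave these log2 ranges for training in females: H19 -0.056 to 0.349, Igf2 -0.219 to 0.066, Igf2r -0.027 to 0.069, Cdkn1c -0.057 to 0.071, Mest -0.487 to 0.063, Peg3 -0.075 to 0.297 and Meg3 -0.292 to 0.023. In males they were -0.085 to 0.238 for Cdkn1c, -0.271 to 0.208 for Mest, -0.018 to 0.45 for Peg3 and -0.326 to 0.1 for Dlk1. In the mean of both sexes they were -0.031 to 0.065 for Grb10, -0.257 to 0.067 for Mest and -0.036 to 0.124 for Cdkn1c. In the interaction they were -0.18 to 0.135 for Meg3, -0.036 to 0.069 for Igf2r, -0.097 to 0.23 for Cdkn1c, -0.029 to 0.558 for Mest, -0.084 to 0.384 for Peg3 and -0.065 to 0.32 for Rian. For sex in non-trained mice they were -0.191 to 0.11 for Igf2 and -0.23 to 0.297 for Dlk1. Counts of 10 to 40 per library limit Dlk1.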

Other observations

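Nctc1, a noncoding RNA of the muscle enhancer region that H19 and Igf2 share, stood at 93.7 ± 17.4 CPM in the 10 female and 92.1 ± 10.4 CPM in the 10 male libraries (SD). It ran from 72.8 to 122.7 CPM over the 20 libraries, a range of 1.69-fold, and the 2 sexes overlapped throughout.

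Of the 140 relations between a member and a summed marker list, 0 passed Benjamini-Hochberg adjustment. The lowest p was that of Dlk1 with the slow fibre sum, where r was -0.69 over 20 libraries centred on group means (permutation p = 5.7e-04, adjusted p = 0.0798) and rho was -0.72 (permutation p = 8.1e-04, adjusted p = 0.113). Without the 2 libraries of most extreme sums r was -0.70, and within groups of 5 libraries it was -0.83 and -0.58 in females without and with training, and -0.80 and -0.92 in males. Dlk1 rests on sparse counts, and the sign is opposite to that of H19 with the same sum.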
